A study of Mus musculus with 6 samples.

Results

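The elastic fibre genes described here are the 10 genes of elastin, the fibrillins, the microfibril proteins and the assembly factors, namely Eln, Fbn1, Fbn2, Fbln5, Efemp2, Ltbp2, Ltbp4, Mfap2, Mfap4 and Mfap5. They were taken by symbol from the count tables, and all 10 were found among 22007 gene symbols. The tissue was cornea from male C57BL/6J mice in 2 groups, assayed by bulk RNA-seq. The OFBI group had been exposed, awake, to 1 open-field blast from 350 g of C-4 explosive at a distance of 3 m, and its corneas were taken 12 months later. The Naive group carries the same 12-month label and no blast. Each group had 3 libraries, each from a pool of corneas, so a library is an average over animals, and the labels give neither the number of corneas in a pool nor the age of the mice.

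An elastic fibre has a core of cross-linked elastin on a scaffold of microfibrils. Fibrillins form the microfibrils, microfibril-associated proteins bind to them, fibulins and latent TGF-beta binding proteins bring elastin and its cross-linking enzymes to the scaffold, and lysyl oxidases make the cross-links. In the cornea, fibrillin microfibrils are the more widespread part of this system, and fibres that contain elastin lie mainly in the peripheral stroma and at the limbus.

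The 2 groups differed in depth. The OFBI libraries held 3410476, 3355422 and 1173472 estimated counts in replicates 1, 2 and 3, and the Naive libraries held 41971752 to 47809779. Of the values from 1 to 40 in a library, 39.4% to 50.5% were multiples of 4, so many genes may carry about 4 counts for each sequenced fragment, an inference from the values that no label states. A floor of 12 counts, or 3 fragments, corresponds to 3.71, 3.84 and 11.2 CPM (counts per 1000000 counts, with library sizes scaled by TMM) in OFBI replicates 1, 2 and 3, and to 0.237 to 0.264 CPM in the Naive libraries. These floors cover counting error only. All 6 libraries carry the same batch number, and depth followed the group, so depth and group cannot be told apart. In bulk tissue, fewer cells of a type and less RNA per cell cannot be told apart either. Over all 13941 genes tested, edgeR called 8.41% higher and 10.4% lower at an adjusted p below 0.05, the background for the marker counts that follow. Of 8 corneal epithelial markers, 3 rose, 0 fell and 5 did not pass. The keratin gene Krt12, among those that rose, averaged 25571 ± 2985 CPM in OFBI and 9999 ± 1117 CPM in Naive corneas (SD, n = 3 each). Dsg1a, among those that did not pass, averaged 477 ± 193 CPM in OFBI and 895 ± 104 CPM in Naive corneas (SD, n = 3 each). Of 6 corneal endothelial markers, 0 rose, 3 fell and 3 did not pass. Of 8 keratocyte markers, 2 rose, 2 fell and 4 did not pass, with a summed level of 4405 to 5979 CPM in OFBI and 1408 to 1879 CPM in Naive libraries. Most of that sum came from Col1a1 and Col1a2, while the median log2 fold change of the 8 markers was -0.78. The type I collagen genes Col1a1 and Col1a2 rose with Eln, at 3398 ± 781 and 1564 ± 122 CPM in OFBI and 725 ± 160 and 495 ± 104 CPM in Naive corneas (SD, n = 3 each, adjusted p = 0.00666 for both by edgeR). The corneal proteoglycan genes Kera and Lum did not pass, at 2.13 ± 3.70 and 9.70 ± 7.59 CPM in OFBI and 10.8 ± 1.82 and 17.3 ± 1.05 CPM in Naive corneas (SD, n = 3 each), and Dcn and Ptgds fell.

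Eln and Ltbp4 rose after OFBI, and the remaining 8 elastic fibre genes did not pass the test in either direction. Eln encodes elastin, and Ltbp4 encodes a latent TGF-beta binding protein that also helps to place elastin on microfibrils. All 10 genes passed the filter on low counts. With edgeR's quasi-likelihood test at an adjusted p below 0.05, 2 of the 10 were called higher and 0 lower, and 2 of the 10 had an unadjusted p below 0.05. Over all 13941 genes tested, 8.41% were called higher and 10.4% lower, and 4589 genes had an unadjusted p below 0.05. So 2 of 10 is a count on a small list beside backgrounds of that size. DESeq2 and limma-voom called the same number, 2 higher and 0 lower. Over all 13941 genes, DESeq2 called 1854 higher and 1821 lower, and limma-voom 1019 higher and 1248 lower. The median log2 fold change of the 10 genes was 0.00, and that of all genes tested was -0.20. The pools are described as biological replicates without saying whether they came from separate cohorts, so p-values measure only the spread between these pools.

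**Figure D1:**
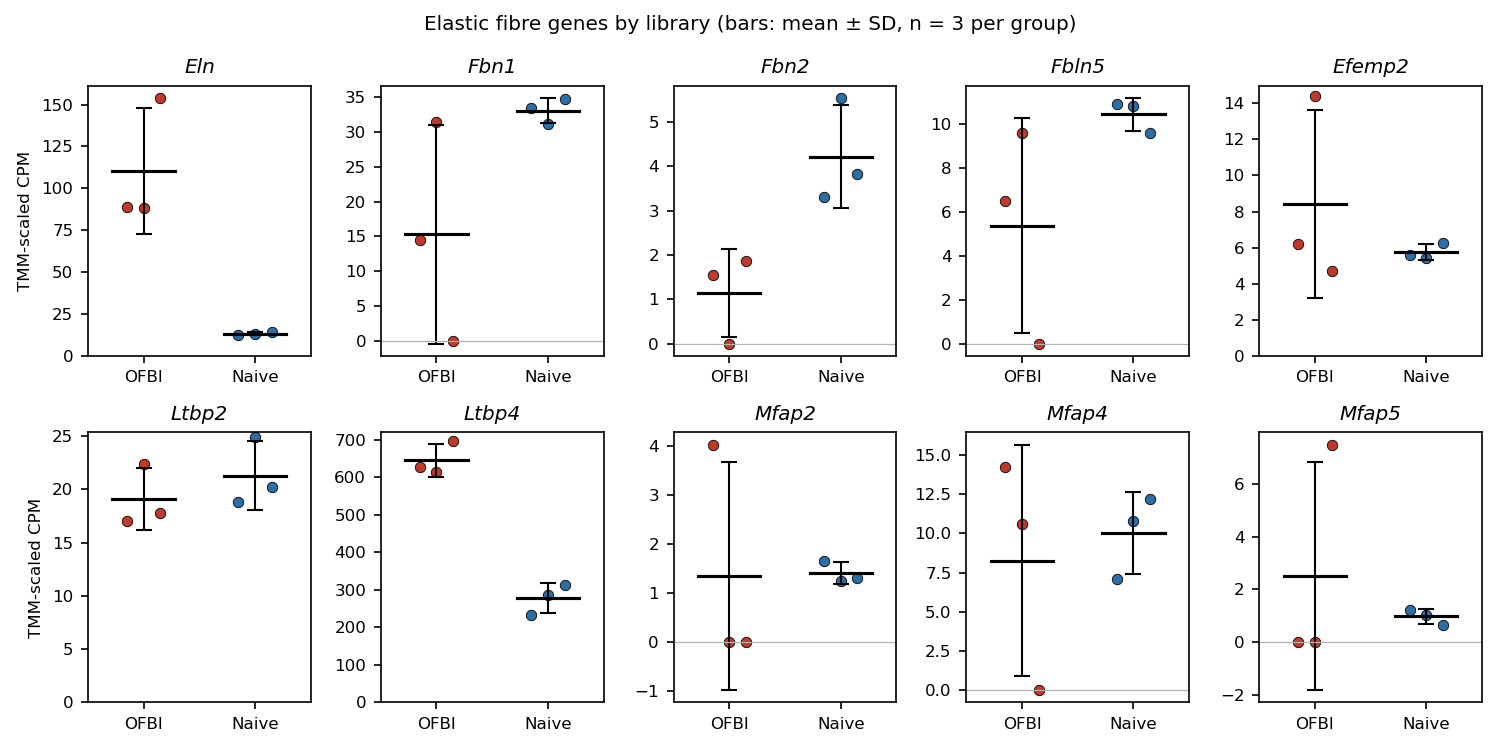
TMM-scaled CPM of each elastic fibre gene in each library, with OFBI (red) on the left and Naive (blue) on the right of every panel; lines and bars are the mean ± SD of 3 libraries, and each panel has its own linear axis. Eln at 88.0 to 154 CPM and Ltbp4 at 614 to 696 CPM in OFBI lie above all Naive libraries, as 16.4% of all genes tested do, and 4 genes are at 0 in OFBI replicate 3.

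The elastin gene lies on chromosome 5 (chr5:134702593-134747323, minus strand, GRCm38), and 3.3% of its exon bases are shared with an antisense gene model, Gm30003, that has no row in the tables. It had 288, 275 and 165 estimated counts in OFBI replicates 1, 2 and 3, against 639, 592 and 642 in Naive replicates 1, 2 and 3. On the CPM scale, Eln was at 89.0, 88.0 and 154 in the OFBI replicates and at 12.6, 12.8 and 14.1 in the Naive replicates. The lowest OFBI library thus lay several times above the highest Naive library, and OFBI replicate 3, the shallowest library, was the highest. All OFBI libraries lay above all Naive libraries for 16.4% of all genes tested. The means were 110 ± 38.0 CPM in OFBI and 13.2 ± 0.840 CPM in Naive corneas (SD, n = 3 each), with a log2 fold change of 3.05 ± 0.27 (SE, adjusted p = 0.00543 by edgeR). The mean Naive level would have given 42.6, 41.2 and 14.1 counts at the depths of OFBI replicates 1, 2 and 3. The observed counts were larger than these in 3 of 3 OFBI libraries. Summed over libraries and read as fragments, 182 in OFBI and 468 in Naive give a depth-adjusted ratio of 7.45, with an exact 95% interval of 6.25 to 8.87 that covers counting error only. Thinning every library to the counts of OFBI replicate 3 gave a log2 fold change of 3.36 (edgeR adjusted p = 0.00237). Without OFBI replicate 3 it was 2.74 (edgeR adjusted p = 0.00171). Without Naive replicate 2 it was 3.07 with an edgeR adjusted p of 0.0518, where the same test called 0 of 12094 genes and DESeq2 and limma-voom gave adjusted p-values of 2.08e-12 and 0.000188 for Eln. Over 18 alternatives the adjusted p of Eln ranged from 5.29e-23 to 0.0518 and its log2 fold change from 2.41 to 3.36.

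Ltbp4 had the highest level per kilobase of the 10 genes in both groups. The gene lies on chromosome 7 (chr7:27305136-27337692, minus strand). It had 2025, 1917 and 744 estimated counts in OFBI replicates 1, 2 and 3, against 11846, 13199 and 14188 in Naive replicates 1, 2 and 3. On the CPM scale these were 626, 614 and 696 in OFBI and 234, 285 and 313 in Naive libraries. All OFBI libraries lay above all Naive libraries, which held for 16.4% of all genes tested, and the 3 OFBI libraries lay close together. The means were 645 ± 44.3 CPM in OFBI and 277 ± 39.8 CPM in Naive corneas (SD, n = 3 each), and the log2 fold change was 1.22 ± 0.15 (SE, adjusted p = 0.00851 by edgeR). It lost its call without Naive replicate 2, with a log2 fold change of 1.27 (edgeR adjusted p = 0.0605), and with a trend in GC content and transcript length removed, as described next. Over 18 alternatives its adjusted p ranged from 1.38e-12 to 0.871.

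Fold changes followed the GC content of the transcripts across all genes. The median log2 fold change was -0.54 over 3060 tested genes with under 45% GC, -0.14 over 3633 genes with 50% to 55%, 0.16 over 2893 genes with 55% to 60% and 0.71 over 717 genes with 60% or more, where 29.1% of genes were called higher. Ltbp4, at 62.2%, and Mfap2, Eln and Ltbp2, at 59.6%, 58.8% and 58.5%, were the most GC-rich of the 10 genes, and Mfap5 and Fbln5, at 46.4% and 46.9%, the least. The stretches shown are the most GC-rich windows of 90 bases inside a single coding exon, for the pair of genes that rose and for 2 scaffold and assembly genes that did not pass. They are read 5′ to 3′ on the coding strand from GENCODE release 21 on GRCm38, and capitals mark runs of at least 6 G or C.
Eln: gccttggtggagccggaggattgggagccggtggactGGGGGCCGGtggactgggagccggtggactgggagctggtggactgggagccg
Ltbp4: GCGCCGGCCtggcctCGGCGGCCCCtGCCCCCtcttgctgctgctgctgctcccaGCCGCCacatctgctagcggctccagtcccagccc
Fbn1: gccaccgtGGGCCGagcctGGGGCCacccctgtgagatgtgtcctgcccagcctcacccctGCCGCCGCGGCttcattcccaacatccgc
Fbln5: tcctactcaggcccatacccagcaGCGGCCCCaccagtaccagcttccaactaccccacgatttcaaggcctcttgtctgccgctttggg
The Eln window lies in exon 31 of 37 (chr5:134707561-134707650, minus strand) with 72.2% GC, and it repeats near-identical short units. The Ltbp4 window lies in exon 1 of 33 (chr7:27337476-27337565, minus strand) with 75.6% GC. That of Fbn1 lies in exon 6 of 65 (chr2:125412622-125412711, minus strand) with 71.1% GC, and that of Fbln5 in exon 4 of 11 (chr12:101809747-101809836, minus strand) with 60% GC. Over the whole coding sequence, GC content was 62.6% in Eln, 62.4% in Ltbp4, 51.7% in Fbn1 and 52.1% in Fbln5, so Eln and Ltbp4 were alike in coding GC. By the whole transcript, which the GC classes and the trend use, Eln at 58.8% and Ltbp4 at 62.2% fell on either side of the class edge at 60%.

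With the GC and length trend of each library removed, the log2 fold change of Eln was 2.41 ± 0.23 (SE, adjusted p = 0.0124 by edgeR), and that of Ltbp4 was 0.05 ± 0.16 (SE, adjusted p = 0.871 by edgeR). Eln thus kept its call and Ltbp4 did not. Ltbp2 moved to -0.96 ± 0.31 (SE, adjusted p = 0.0808 by edgeR; its alternatives gave 0.0808 to 0.995). Since the trend was estimated from libraries that differ by group, a group difference that follows GC content would be removed with it, and the GC trend and the group cannot be told apart.

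**Figure D2:**
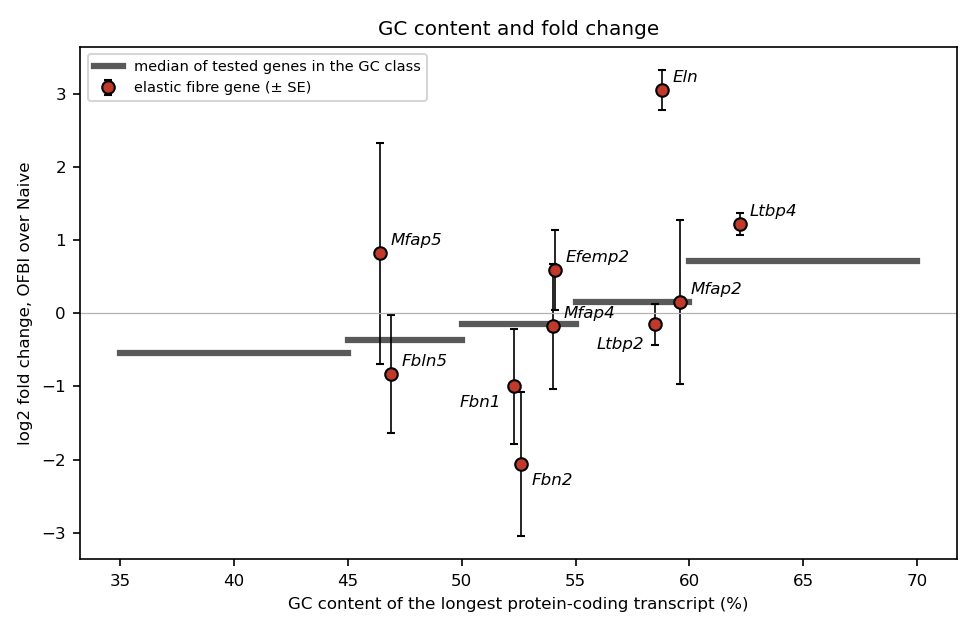
GC content of the longest protein-coding transcript, in percent, against the log2 fold change of OFBI over Naive for the 10 elastic fibre genes (red points, ± SE) and the median of all tested genes in each GC class (grey bars; the outer classes are open-ended). Eln at 3.05 lies far above the bar of its class at 0.16, and Ltbp4 at 1.22 lies closer to the bar of its class at 0.71.

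The ratio of Eln to another gene inside a library does not depend on library size or scaling where both genes have counts, although its precision depends on depth. Eln counts per Fbn1 count were 6.13 and 2.81 in OFBI replicates 1 and 2, against 0.378, 0.409 and 0.407 in Naive replicates 1, 2 and 3. In OFBI replicate 3, where Fbn1 was at 0, the ratio was at least 13.8 against the floor of 12 counts. Every OFBI library had more Eln than Fbn1 counts, and every Naive library had fewer. With 4 counts added to each gene, the log2 ratio averaged 3.12 ± 2.04 in OFBI and -1.32 ± 0.06 in Naive corneas (SD, n = 3 each), a difference of 4.45 (exact permutation test, two-sided, p = 0.1, the smallest that 3 against 3 libraries allow). Eln counts per Ltbp4 count, a denominator added after the data were seen, were 0.142, 0.143 and 0.222 in the OFBI replicates and 0.0539, 0.0449 and 0.0452 in the Naive replicates. All 3 OFBI libraries were again above all 3 Naive libraries, by a difference of 1.80 in the log2 ratio (exact permutation test, two-sided, p = 0.1).

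Eln moved up in the order of the 10 genes. By CPM per kilobase of the longest protein-coding transcript, Naive corneas had Ltbp4 first at 51.4 ± 7.39, then Mfap4 at 5.84 ± 1.53, Eln at 3.42 ± 0.218, Ltbp2 at 3.15 ± 0.477 and Fbn1 at 2.77 ± 0.148 (SD, n = 3 each). The ranges of Eln and Ltbp2, and of Ltbp2 and Fbn1, overlapped. Efemp2, Fbln5 and Mfap2 followed without overlap between neighbours, and Mfap5 and Fbn2, the lowest, overlapped. In OFBI corneas Ltbp4 was first at 120 ± 8.23 and Eln came next at 28.7 ± 9.86 CPM per kilobase (SD, n = 3 each), both without overlap with the gene after them. From Mfap4, next at 4.80 ± 4.29, down to Fbn2 at 0.103 ± 0.0905 CPM per kilobase (SD, n = 3 each), every gene overlapped its neighbour, so the order among these 8 was not resolved. Summed over the 10 genes, the OFBI libraries had 779 to 882 CPM and the Naive libraries 329 to 416 CPM, of which Eln and Ltbp4 made up 88.8% to 96.4% in OFBI and 75.1% to 78.6% in Naive libraries. The other 8 genes together had 64.0, 88.4 and 31.8 CPM in OFBI replicates 1, 2 and 3, against 81.9, 91.0 and 88.8 CPM in the Naive replicates. OFBI replicate 2 lay inside the Naive range and the other OFBI libraries below it.

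The fibrillins did not pass the test. Fbn1 (chr2:125300594-125507993, minus strand), the main fibrillin of adult microfibrils, had 14.5, 31.4 and 0 CPM in OFBI replicates 1, 2 and 3, against 33.4, 31.2 and 34.7 CPM in Naive replicates 1, 2 and 3. OFBI replicate 2 reached the Naive range and the other OFBI libraries lay below it. The log2 fold change was -1.0 ± 0.79 (SE, adjusted p = 0.423 by edgeR). In OFBI replicate 3 the mean Naive level would have given 35.4 counts and 0 were found, and in replicates 1 and 2 it would have given 107 and 103 counts and 47 and 98 were found. A protein-coding gene model on the opposite strand, Gm9913, shares 20.14% of the exon bases of Fbn1. That gene model had at most 4 counts in any library. Fbn2, a fibrillin used mostly in development, had 1.55, 0 and 1.87 CPM in the OFBI replicates and 3.30, 5.54 and 3.83 CPM in the Naive replicates. All OFBI libraries lay below all Naive libraries, which held for 29.9% of all genes tested. They rest on 7 counts, or 2 fragments, in all, for a depth-adjusted ratio of 0.256 with an exact 95% interval of 0.0307 to 0.940 by counting error, and the log2 fold change was -2.06 ± 0.98 (SE, adjusted p = 0.194 by edgeR).

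The assembly fibulins did not pass either. Fbln5 (chr12:101746565-101819055, minus strand) encodes fibulin-5, which joins elastin to microfibrils and integrins. It had 6.49, 9.60 and 0 CPM in OFBI replicates 1, 2 and 3, against 10.9, 10.8 and 9.58 CPM in the Naive replicates, with a log2 fold change of -0.83 ± 0.80 (SE, adjusted p = 0.519 by edgeR). Efemp2 (chr19:5473954-5482517, plus strand) encodes fibulin-4, which lysyl oxidase needs to cross-link elastin. It had 6.18, 14.4 and 4.68 CPM in the OFBI replicates and 5.57, 5.41 and 6.26 CPM in the Naive replicates, with a log2 fold change of 0.59 ± 0.55 (SE, adjusted p = 0.503 by edgeR). For Fbln5, OFBI replicate 2 just reached the Naive range and the other OFBI libraries lay below it. For Efemp2, the OFBI libraries lay below, inside and above the Naive range, and without OFBI replicate 2 the value of Efemp2 was -0.08. Efemp2 and Mfap4 share 4.57% and 4.63% of their exon bases with Mus81 and Mapk7 on the opposite strand, and since the strand setting of the counting is unknown, reads of such pairs may be mixed.

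Ltbp2 did not pass the test, and its OFBI libraries lay close together. The gene (chr12:84783212-84876532, minus strand) encodes a latent TGF-beta binding protein that attaches to fibrillin, and had 17.0, 22.4 and 17.8 CPM in OFBI replicates 1, 2 and 3, against 18.8, 24.9 and 20.2 CPM in the Naive replicates. The ranges overlapped. Its log2 fold change was -0.15 ± 0.28 (SE, adjusted p = 0.745 by edgeR), and the depth-adjusted ratio of 0.913 had an exact 95% interval of 0.634 to 1.28 by counting error.

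None of the 3 microfibril-associated genes passed the test by edgeR, and 0 of them had an unadjusted p below 0.05. Mfap4 (chr11:61485431-61488900, plus strand) encodes a protein that binds elastin and integrins. It had 14.2, 10.6 and 0 CPM in OFBI replicates 1, 2 and 3, against 7.11, 10.8 and 12.2 CPM in the Naive replicates, with a log2 fold change of -0.18 ± 0.85 (SE, adjusted p = 0.907 by edgeR), or 0.29 without OFBI replicate 3 (edgeR adjusted p = 0.545; its alternatives gave 0.332 to 0.993). Mfap2 (chr4:141010418-141015984, plus strand) and Mfap5 (chr6:122505845-122529290, plus strand) encode small glycoproteins of the microfibril. Mfap2 had 13 counts in OFBI replicate 1 and 0 in replicates 2 and 3, where the Naive level would give 4.54, 4.38 and 1.5 counts in replicates 1, 2 and 3. Mfap5 had 8 counts in OFBI replicate 3 and 0 in replicates 1 and 2, where the Naive level would give 3.13, 3.02 and 1.03 counts in replicates 1, 2 and 3. The Naive levels were 1.40 ± 0.223 CPM for Mfap2 and 0.967 ± 0.278 CPM for Mfap5 (SD, n = 3 each), both below the floor of every OFBI library. Depth-adjusted ratios were 1.15 with an exact 95% interval of 0.229 to 3.56 for Mfap2 and 1.10 with one of 0.128 to 4.26 for Mfap5, so a difference in these genes inside those intervals was not detectable at this depth.

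**Figure D3:**
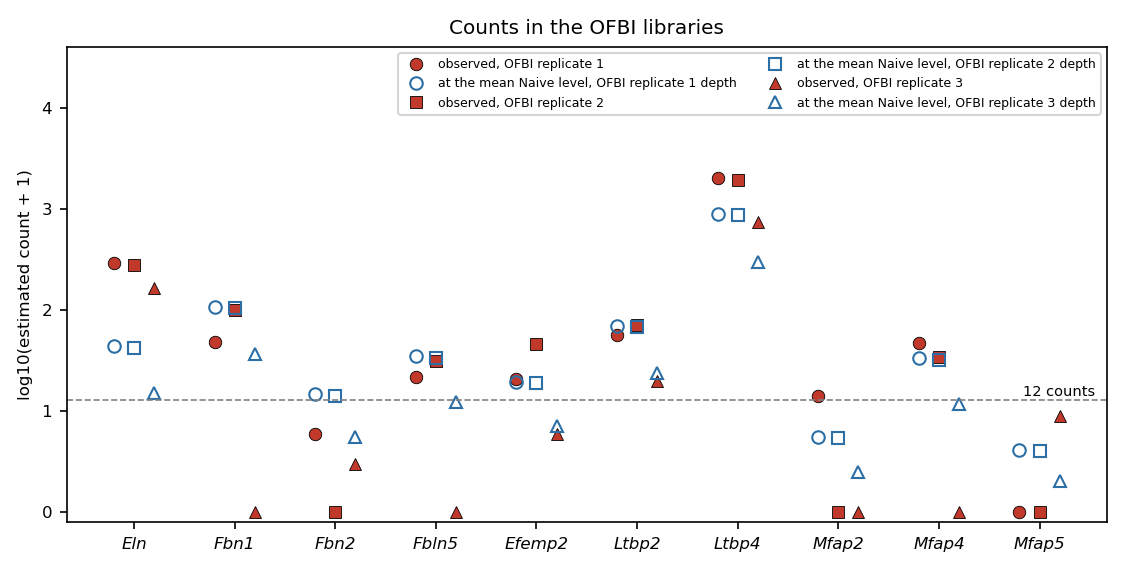
Estimated counts in the OFBI libraries on a log10(count + 1) scale for each elastic fibre gene; filled symbols are the observed counts and open symbols the counts that the mean Naive level would give at the depth of the same OFBI library, with a dashed line at 12 counts. Eln and Ltbp4 lie above their open symbols in all 3 OFBI libraries, and Mfap2 and Mfap5 have open symbols below the line throughout.

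**Figure D4:**
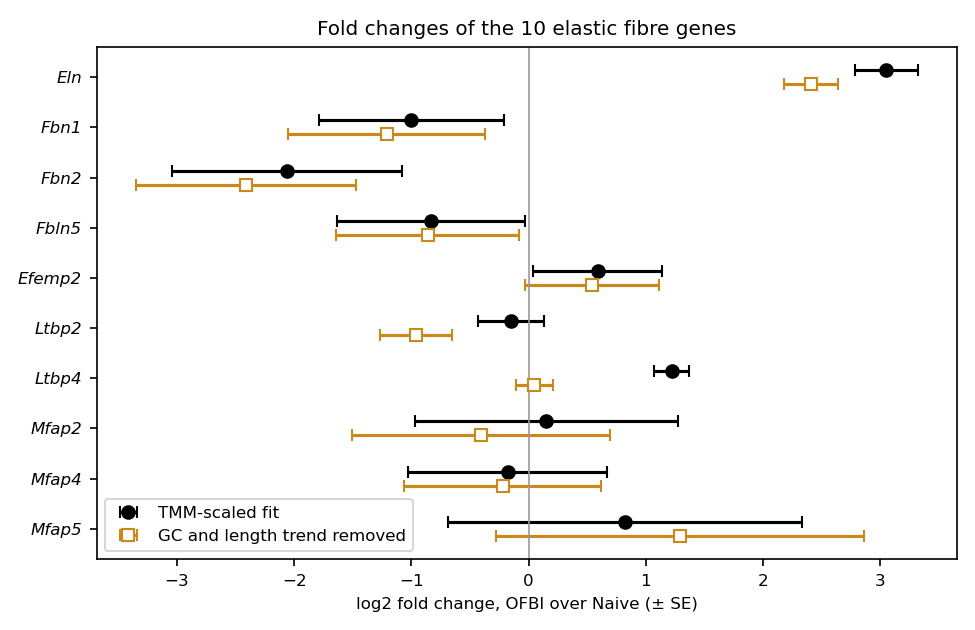
Log2 fold change of OFBI over Naive (± SE) for the 10 elastic fibre genes, in the TMM-scaled edgeR fit (filled circles) and with a GC and length trend removed (open squares). Eln stays above 2 in both, Ltbp4 moves from 1.22 to 0.05, and Fbn2, Mfap2 and Mfap5 have the widest bars.

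Among the other genes of the pathway, the cross-linking enzymes Lox and Loxl1 rose. Of 39 genes listed with roles around the elastic fibre, 35 were tested, 3 rose (Lox, Loxl1 and Tgfb1) and 2 fell (Efemp1 and Vcan). Beside the 8.41% of all genes called higher and the 10.4% called lower, these counts are near or below the background. The other 30 did not pass, and the median over the 35 was 0.14 on the log2 scale. Lox, the founding lysyl oxidase, had 12.7, 8.32 and 17.8 CPM in OFBI replicates 1, 2 and 3, against 1.96, 2.48 and 1.85 CPM in the Naive replicates, a log2 fold change of 2.60 ± 0.53 (SE, adjusted p = 0.0231 by edgeR). Loxl1, the lysyl oxidase-like enzyme tied to elastin deposition, had 51.9, 57.6 and 108 CPM in the OFBI replicates and 22.5, 24.7 and 24.5 CPM in the Naive replicates, a log2 fold change of 1.58 ± 0.31 (SE, adjusted p = 0.0207 by edgeR). For both genes all OFBI libraries were above all Naive libraries, which held for 16.4% of all genes tested. With the GC and length trend removed, Lox, at 43.9% GC, kept its call at 2.90 ± 0.57 (SE, adjusted p = 0.0257 by edgeR), and Loxl1, at 61.0% GC, had 0.76 ± 0.26 (SE, adjusted p = 0.0923 by edgeR). Over the alternatives, adjusted p-values ranged from 7.54e-08 to 0.156 for Lox and from 4.02e-05 to 0.0967 for Loxl1. Without Naive replicate 1, 2 or 3 neither passed the edgeR test, with adjusted p-values of 0.112, 0.121 and 0.116 for Lox and 0.0943, 0.0967 and 0.0919 for Loxl1. Loxl2, Loxl3 and Loxl4 did not pass.

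**Figure D5:**
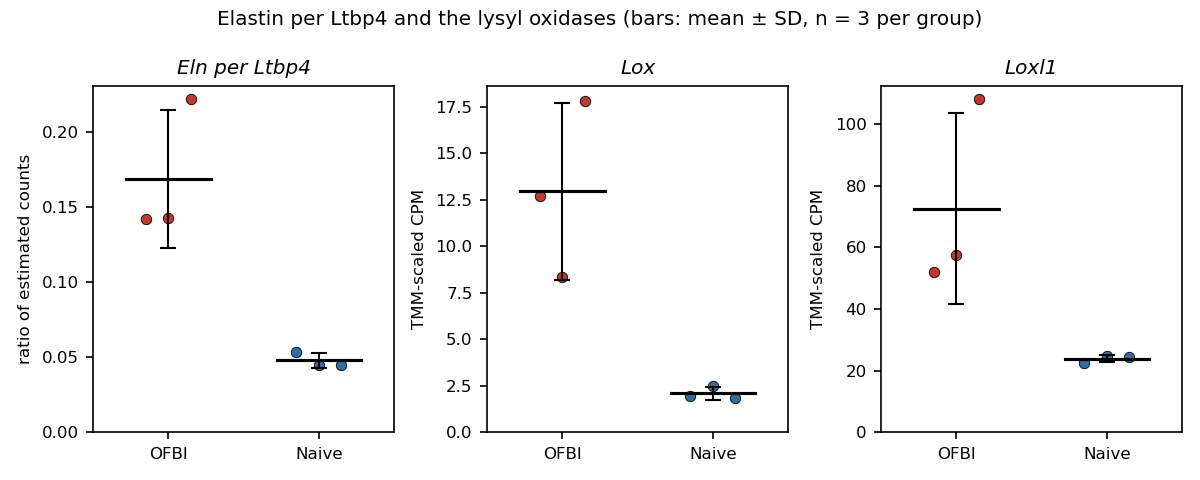
Estimated Eln counts per Ltbp4 count, and TMM-scaled CPM of the lysyl oxidase genes Lox and Loxl1, in each OFBI (red, left) and Naive (blue, right) library; lines and bars are the mean ± SD of 3 libraries. In all 3 panels every OFBI library lies above every Naive library, with Eln per Ltbp4 at 0.142 to 0.222 in OFBI and 0.0449 to 0.0539 in Naive libraries. For CPM of a gene, this held for 16.4% of all genes tested.

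Of 14 tested genes that share the microfibril or its interface with elastin, 2 fell and 0 rose by edgeR or by DESeq2, with 1 higher at an unadjusted p below 0.05. With 10.4% of all genes called lower, 2 of 14 is near the background. At an unadjusted p below 0.05 the background was 4589 of 13941 genes. DESeq2 called 1854 of the 13941 higher and 1821 lower. Efemp1, which encodes fibulin-3, had 115, 115 and 108 CPM in OFBI replicates 1, 2 and 3, against 268, 217 and 191 CPM in the Naive replicates, a log2 fold change of -1.0 ± 0.17 (SE, adjusted p = 0.0147 by edgeR). At 44.9% GC it had -0.51 with the trend removed (edgeR adjusted p = 0.0926, the highest of a range from 1.57e-06). Vcan, which encodes versican, a large proteoglycan bound to fibrillin microfibrils, was at 0 in every OFBI library, against 6.00 ± 1.08 CPM in Naive corneas (SD, n = 3), and was at least 3.72-fold lower against the floor of 12 counts over the OFBI group (edgeR adjusted p = 0.0190). Of the 1446 genes called lower over all genes tested, 742 were at 0 in every OFBI library, as Vcan was. Without Naive replicate 1, 2 or 3 neither Efemp1 nor Vcan passed the edgeR test. Of the proteases that can cut elastin, 5 of 8 were tested and 0 passed by edgeR, with 1 at an unadjusted p below 0.05 and 1 called by DESeq2, Mmp2 in both cases. Mmp2, a gelatinase, had a log2 fold change of 0.89 ± 0.28 (SE, adjusted p = 0.0663 by edgeR), and Ctsk, cathepsin K, one of -1.63 ± 1.09 (SE, adjusted p = 0.345 by edgeR). The neutrophil elastase gene Elane was at 0 in all 6 libraries, and the macrophage elastase gene Mmp12 was at 0 in all OFBI libraries and at 0.709 ± 0.271 CPM in Naive corneas (SD, n = 3), below the OFBI floor.

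Of 11 genes of elastin and integrin receptors and TGF-beta ligands, 1 rose, 0 fell and 10 did not pass by edgeR, with 3 higher and 1 lower at an unadjusted p below 0.05. Over all 13941 genes tested, 8.41% were called higher and 4589 had an unadjusted p below 0.05, so these counts are near the background. DESeq2 called Tgfb1, Itgb3 and Itgb6 higher and Ctsa lower, beside 1854 higher and 1821 lower of all 13941 genes. Tgfb1, the ligand that latent TGF-beta binding proteins hold in the matrix, had 135, 110 and 131 CPM in OFBI replicates 1, 2 and 3, against 61.9, 57.7 and 48.2 CPM in the Naive replicates, a log2 fold change of 1.16 ± 0.17 (SE, adjusted p = 0.0111 by edgeR). With the trend removed it was 0.29 (edgeR adjusted p = 0.314), or 1.18 (edgeR adjusted p = 0.0144) where the longest transcript of any type was used in place of the longest protein-coding one. The lowest adjusted p over its alternatives was 4.50e-09. Itgb6, an integrin chain that activates latent TGF-beta, had 45.4, 94.4 and 117 CPM in the OFBI replicates and 37.9 ± 2.20 CPM as the mean of the Naive replicates (SD, n = 3). Its log2 fold change was 1.16 ± 0.33 (SE, adjusted p = 0.0516 by edgeR), and it passed under 7 of 18 alternatives, with adjusted p-values of 0.0100 to 0.192.

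Markers of other tissues were set beside these values, with 8.41% of all genes tested called higher and 10.4% called lower as the background. Of 8 hepatocyte markers, 4 were tested and 4 rose, with a summed level of 133, 151 and 873 CPM in OFBI replicates 1, 2 and 3, against 19.3 to 29.3 CPM in the Naive libraries. Among these, Apoa1 and Tat averaged 0.336 ± 0.209 and 0.124 ± 0.133 CPM in Naive corneas (SD, n = 3 each). Both passed the filter on low counts only through their OFBI values, so this count was partly fixed in advance. Of 7 cardiomyocyte markers, 4 rose, with 138, 18.9 and 197 CPM in OFBI replicates 1, 2 and 3, against 15.8 to 20.3 CPM in the Naive libraries. Nppa and Myh6, among those that rose, also passed the filter only through their OFBI values. The Eln levels in OFBI replicates 1, 2 and 3 were 89.0, 88.0 and 154 CPM. Of 10 vascular smooth muscle and pericyte markers, 3 rose and 0 fell, with a summed level of 1935 to 2242 CPM in OFBI and 1265 to 1348 CPM in Naive libraries, most of it from Notch3. The genes that rose were Notch3, Tagln and Des, of which Tagln averaged 29.0 ± 4.02 CPM in OFBI and 8.63 ± 0.862 CPM in Naive corneas (SD, n = 3 each, adjusted p = 0.0147 by edgeR), and Des had a log2 fold change of 1.37 (adjusted p = 0.0268 by edgeR). Of the 7 that did not pass, Acta2 and Myh11 were at 9.88 ± 4.71 and 15.2 ± 7.22 CPM in OFBI and at 18.2 ± 2.37 and 23.5 ± 0.891 CPM in Naive corneas (SD, n = 3 each). Of 6 conjunctival markers, 5 were tested, 2 rose (Krt13 and Krt4) and 2 fell (Muc4 and Agr2). Krt13 averaged 4082 ± 761 CPM in OFBI and 1387 ± 15.4 CPM in Naive corneas, and Muc4 averaged 599 ± 111 CPM in OFBI and 1779 ± 404 CPM in Naive corneas (SD, n = 3 each, adjusted p = 0.00640 and 0.00990 by edgeR). Of 7 lung markers, 2 were tested, of which Ager fell (adjusted p = 0.0380 by edgeR) and Hopx did not pass. Agr2 and Ager were at 0 in every OFBI library and averaged 1.34 ± 0.189 and 1.32 ± 0.475 CPM in Naive corneas (SD, n = 3 each). Both means lay below the floor of 1.62 CPM over the OFBI group, so these calls rest on levels under that floor. The surfactant genes Sftpc, Sftpb and Sftpa1 were at 0 in all 6 libraries. The part of other tissues in the Eln result was not tested.

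The genes whose pattern was most like that of Eln were H1fx, Prrx2, Col3a1, a row named CAAA01147332.1 and Ptma. Likeness was the root mean square difference over the 6 libraries in log2(CPM + 1) after each gene's own mean was subtracted, among 8927 other tested genes that averaged 10 CPM or more, predicted genes left out. The differences were 0.10 for H1fx, a linker histone, 0.21 for Prrx2, a transcription factor of mesenchyme, 0.22 for Col3a1, type III collagen, and 0.24 for both CAAA01147332.1 and Ptma, prothymosin alpha. Col3a1 had 186, 163 and 245 CPM in OFBI replicates 1, 2 and 3, against 17.6, 27.5 and 28 CPM in the Naive replicates. It too was highest in OFBI replicate 3, and all its OFBI libraries were above all Naive libraries, which held for 16.4% of all genes tested. Since Col3a1 was picked for its likeness to Eln in these same libraries, these shared traits are no separate result.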

How the data were processed

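RNA-seq gene tables of 6 cornea libraries, 3 OFBI and 3 Naive, were used. Per the labels' protocols, total RNA was made into libraries with a stranded kit. Per the submitters' processing notes the build was GRCm38 and the tools included HISAT2, StringTie, DESeq2 and FastQC. Versions, roles and the counting strand were not given in the sources used here. As deposited by the authors, values are estimated counts per gene, in whole numbers, not scaled for depth. Duplicated symbols (31, over 64 rows) were added up, and 26 date-like names were kept as separate rows.

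All genes were tested with edgeR 4.0.16 (filterByExpr, TMM, quasi-likelihood fit on group, two-sided, Benjamini-Hochberg adjustment over 13941 genes). The SE is the absolute log2 fold change divided by the square root of F. Depth-adjusted ratios compare sums of counts divided by 4 after scaling by library size and TMM factor, with exact conditional binomial intervals. GC content and length came from GENCODE release 21, whose match to the annotation used upstream is unknown, and 13806 tested genes (99.0%) had both. The trend was a smooth fit per library (mgcv) used as an offset. Alternatives were DESeq2 1.42.0, limma-voom 3.58.1, other scaling and filters, a replicate block, thinning, counts divided by 4, trend removal and leaving out each library. The fit was tested on simulated data.

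The named genes were the 10 members, the 2 tested genes with the smallest p in each of 4 pathway lists and the 5 genes most like Eln; others were named after their values were seen. Members and lists were chosen with earlier results of these data known.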

Additional observations from a re-analysis of the deposited data

How the results depend on the processing

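The call of Eln held under 17 of 18 alternatives and that of Ltbp4 under 15 of 18, with the exceptions given in the report, beside a log2 fold change of 0.07 for Ltbp4 (edgeR adjusted p = 0.804) with the trend removed by the longest transcript of any type. Depth limits Fbn2, Mfap2 and Mfap5, which could not be tested with the Naive libraries thinned to OFBI replicate 1, and also Efemp2 and Mfap4 with all libraries thinned to OFBI replicate 3. Among the other pathway genes, Lox, Vcan and Ctsk could not be tested with all libraries thinned to OFBI replicate 3 either. With library size as the only scaling the median over all genes tested moved to -0.40 on the log2 scale, against -0.20, and 29.8% of called genes were higher instead of 44.8%.

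The number of the 10 genes called higher was 1 with the GC and length trend removed, by either transcript choice, and 0 to 2 when 1 library was left out; none was called lower by edgeR in any of these, while without OFBI replicate 3 DESeq2 called Fbn2 and limma-voom called Mfap5 lower. The other pathway genes called were 6 higher with DESeq2 and 6 with counts divided by 4; 1 was lower with the replicate block and 1 with all libraries thinned. Leaving out 1 library gave 0 to 7 higher and 0 to 3 lower, with 0 in both directions without any 1 Naive library. Over all genes, 1854 were higher with DESeq2 and 540 with the replicate block, against 1173. Of lower genes there were 910 without a filter, 253 with the replicate block, 580 with the Naive libraries thinned and 457 with all libraries thinned, against 1446. Leaving out 1 library gave 0 to 1611 higher and 0 to 2065 lower genes, with 106, 0 and 104 called without Naive replicate 1, 2 and 3, where 2611, 2441 and 2615 had an unadjusted p below 0.05. The difference in the log2 ratio of Eln to Fbn1 ranged from 3.31 to 5.28 with 1 library left out and was 3.66 with Fbln5 as the denominator.

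Signs turned only for genes that did not pass. Mfap2 had -1.08 with limma-voom, -0.03 with library size only, -1.71 with the replicate block, -0.41 and -0.38 with the trend removed by the protein-coding or the longest transcript, and -8.37 without OFBI replicate 1, where all its OFBI counts were 0. Mfap5 had -0.69 with limma-voom, -1.69 with the replicate block and -7.85 without OFBI replicate 3, for the same reason, and such fitted values are no bound. Mfap4 had 0.10 with counts divided by 4 and 0.29 without OFBI replicate 3, Efemp2 had -0.08 without OFBI replicate 2, and Ltbp2 had 0.01 without Naive replicate 2. Leaving out each library in turn gave -0.08 to 0.83 for Efemp2, -0.34 to 0.01 for Ltbp2, -8.37 to 0.88 for Mfap2, -0.70 to 0.29 for Mfap4 and -7.85 to 1.42 for Mfap5. The cause of the other changes was not tested. Same-numbered libraries did not deviate together (Pearson r over genes of -0.02 to 0.01) and did not each correlate best with their own number, so the numbers were not taken as pairs. With the replicate block, Lox and Vcan had adjusted p-values of 0.156 and 0.114, and Eln, Ltbp4 and Loxl1 kept their calls.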
